A study of Homo sapiens with 14 samples.

Results

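The genes described here are 31 transcriptional targets of p53, chosen by symbol. A gene was taken from the rows of the array table that carry its symbol alone, and the row with the highest mean over the 14 arrays stood for it. Of the 31 genes, 29 had such a row, out of 18377 genes with a row of their own in the table. Each of the 29 had a single row. BTG2 and FDXR were not analysed here, and neither was the gene of p53 itself.

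The arrays measured RNA of WI-38 cells, fibroblasts grown from human lung, on Affymetrix human Gene ST 1.0 arrays. Primary WI-38 cells at passage 19 gave 2 arrays. Cells of the same strain made immortal with hTERT, the catalytic subunit of telomerase, gave 2 arrays at each of passages 39, 50, 58, 67 and 95 under the letter A, and 2 more at passage 96 under the letter B. All cultures shared the same medium and weekly reseeding, and the 2 arrays of a label are described as biological duplicates. The promoter and vector behind hTERT, the meaning of the letters and whether the cultures were clones do not appear in the labels. Groups are named below by letter and passage, from A39 to A95 and B96, or as primary. Values are the authors' log2 expression, so that a difference of 1 is a doubling, and a level on 1 row cannot be set against a level on another.

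p53 is a transcription factor that is stabilised when DNA is damaged or cells are otherwise stressed. It binds paired recognition elements in DNA and switches on genes that halt the cell cycle, repair DNA, alter metabolism or lead to cell death. Some of its targets, MDM2 first among them, act back on p53 and limit the response. In cultured fibroblasts the pathway is known for its part in replicative arrest, where the target p21 holds cells before DNA synthesis.

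The tissue label and the group labels were checked first. All 10 fibroblast markers examined, among them COL1A1, VIM and DCN, lay above the median gene of the array, with mean log2 values of 9.56 to 13.1. By contrast, 0 of 5 blood markers, 1 of 6 endothelial markers (TEK) and 1 of 8 epithelial markers (KRT14) did so. TERT read 7.07 in primary replicate 1 and 11.70 in primary replicate 2, while the 12 hTERT arrays read between 10.67 and 12.18. The array labelled primary replicate 2 thus goes against its label. No array had the other array of its label as its closest partner over all rows (0 of 14). The 5 pairs of mutual closest partners, of which primary replicate 2 with A39 replicate 1 is the earliest, each joined replicate 2 of a label with replicate 1 of the next. The p53 targets followed the same pairs, with a median absolute gap of 0.05 to 0.12 log2 within these 5 pairs and 0.19 to 0.45 within the 7 pairs that share a label. Whether the labels are offset from the arrays by 1 array was not tested. Such an offset would alter the groups of every comparison and the passages of the trend, and leaving out single arrays does not address it. All groups below are those of the labels.

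The p53 recognition element was looked for near the starts of the 29 genes, because the genes are grouped by their response to this factor. RefSeq promoter windows (build GRCh38.p14), each from 250 bases before to 50 bases after a gene start, were found for 23 of the 29 genes. The search used the consensus of the p53 response element with its 2 decamers adjacent, the C and G of both cores fixed and up to 3 of the 20 positions off the consensus. This allowance was chosen after the matches were seen. The element reads the same on both strands, so a search of 1 strand covers both. It was present in 1.12% of all 35116 windows (1.37% of 27305 genes) and in 7 of the 23 genes. The matching stretches are printed 5′ to 3′ with the element in capitals, and with up to 40 flanking bases where these lie before the gene start.

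MDM2, chr12:68808883-68808982, plus strand: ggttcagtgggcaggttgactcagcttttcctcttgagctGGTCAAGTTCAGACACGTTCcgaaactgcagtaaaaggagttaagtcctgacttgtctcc
FAS, chr10:88991269-88991368, plus strand: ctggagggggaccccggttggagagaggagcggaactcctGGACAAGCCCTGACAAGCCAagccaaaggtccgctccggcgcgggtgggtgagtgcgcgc
SESN1, chr6:109008989-109009077, minus strand: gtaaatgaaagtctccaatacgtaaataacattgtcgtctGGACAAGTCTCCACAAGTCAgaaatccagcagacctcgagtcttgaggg
DDB2, chr11:47214929-47214988, plus strand: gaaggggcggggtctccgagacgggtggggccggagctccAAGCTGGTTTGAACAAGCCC
AEN, chr15:88621266-88621339, plus strand: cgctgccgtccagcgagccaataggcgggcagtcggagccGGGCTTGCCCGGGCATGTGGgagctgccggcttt
RPS27L, chr15:63157487-63157586, minus strand: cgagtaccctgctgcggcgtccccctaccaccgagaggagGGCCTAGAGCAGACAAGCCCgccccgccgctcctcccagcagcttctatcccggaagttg
GDF15, chr19:18386186-18386205, plus strand: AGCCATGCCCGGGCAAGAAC

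The element began 122 bases before a start of FAS, 94 before a start of MDM2, 69 before that of RPS27L, 49 before that of SESN1, 34 before that of AEN and 5 before that of DDB2, where it runs past the start. In GDF15 it began at base 29 of the transcript. DDB2 had the closest match, with 1 position off the consensus, followed by MDM2, FAS and AEN with 2 and by SESN1, RPS27L and GDF15 with 3. A match describes these letters only and is no proof of a bound site.

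Along the labelled course the p53 targets were highest in A39 replicate 2 and A50 replicate 1 and lowest in A67 replicate 2, both A95 arrays and B96 replicate 1. The median deviation of the 29 genes from their own means was 0.31 log2 in A39 replicate 2 and in A50 replicate 1, where 26 of 29 genes lay above their own mean. It was -0.26 in A67 replicate 2, -0.34 in A95 replicate 1, -0.24 in A95 replicate 2 and -0.22 in B96 replicate 1, where 22 to 25 of 29 genes lay below it. B96 replicate 2 stood at 0.069, with 15 genes above and 14 below. A39 replicate 2 was the highest of the 14 arrays for 10 of the 29 genes and for 7.44% of all genes. A95 replicate 1 was the lowest for 8 genes and for 5.69% of all genes, and A95 replicate 2 was the lowest for a further 8 and for 14% of all genes. The genes covered a median range of 0.94 log2 over the arrays, against 0.79 for all 18377 genes, from 0.34 in POLH to 2.53 in SPATA18.

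**Figure D1:**
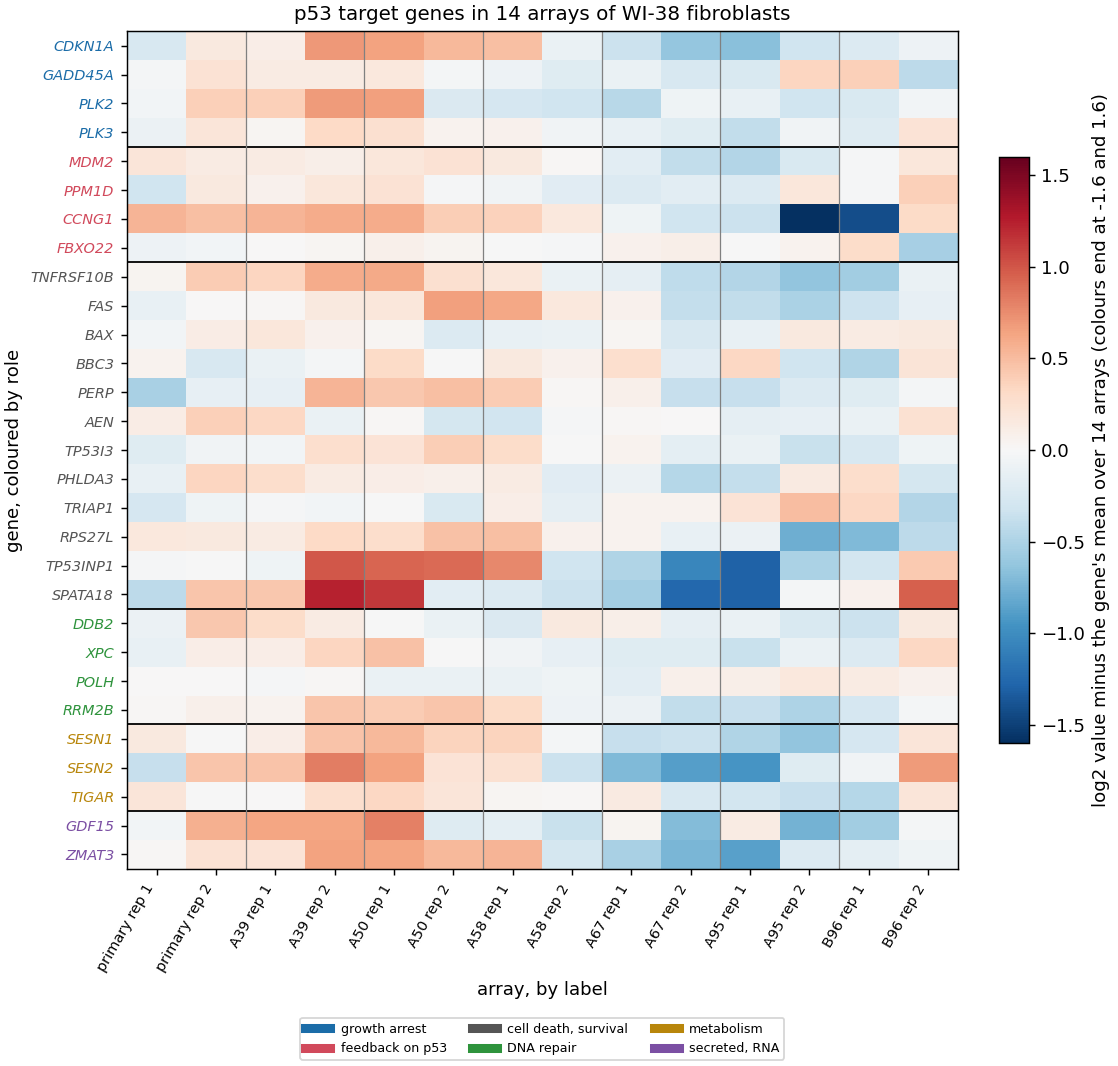
Heat map of 29 p53 target genes (rows, coloured by role) in the 14 arrays (columns, by label), with colour giving the log2 value minus the gene's mean over all arrays. Most rows are red in A39 replicate 2 and A50 replicate 1 and blue in A67 replicate 2, both A95 arrays and B96 replicate 1, and the deepest blue is CCNG1 in A95 replicate 2 and B96 replicate 1.

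Passage was fitted as a number over the 10 hTERT A arrays, to ask which targets changed along the culture. TNFRSF10B, a death receptor for TRAIL, fell by 0.20 ± 0.035 log2 (SE, n = 10) per 10 passages. It was the 1 gene of the 29 to pass limma's test at an adjusted p under 0.05 (adjusted p = 0.0482), against 0.281% of all rows (81 of 28869). Without adjustment, 19 of the 29 genes had a negative slope at p under 0.05, where 8.83% of all rows did, and 1 gene, TRIAP1, had a positive slope at that level, where 9.89% of all rows did. With median centring those shares of rows were 11.5% and 6.69%, and 21 and 1 genes passed. A negative slope of any size was found for 26 of the 29 genes and for 41.5% of all rows. The median slope was -0.104 log2 per 10 passages over the genes and 0.012 over all rows.

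The call of TNFRSF10B was a narrow one. It was lost in 8 of the 10 fits that left out 1 array, with slopes of -0.18 to -0.21 and adjusted p up to 0.136, and it held without A67 replicate 2 (adjusted p = 0.0465) and without A95 replicate 1 (adjusted p = 0.0367). With the replicate number as a block the adjusted p was 0.0545. Closest partners under different labels lie within this fit, which treats the 10 arrays as independent. The count of 19 negative slopes was 12 without A39 replicate 2, against 7.34% of rows. It was between 14 and 19 without any of the others, against 7.48% to 10.2% of rows.

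**Figure D2:**
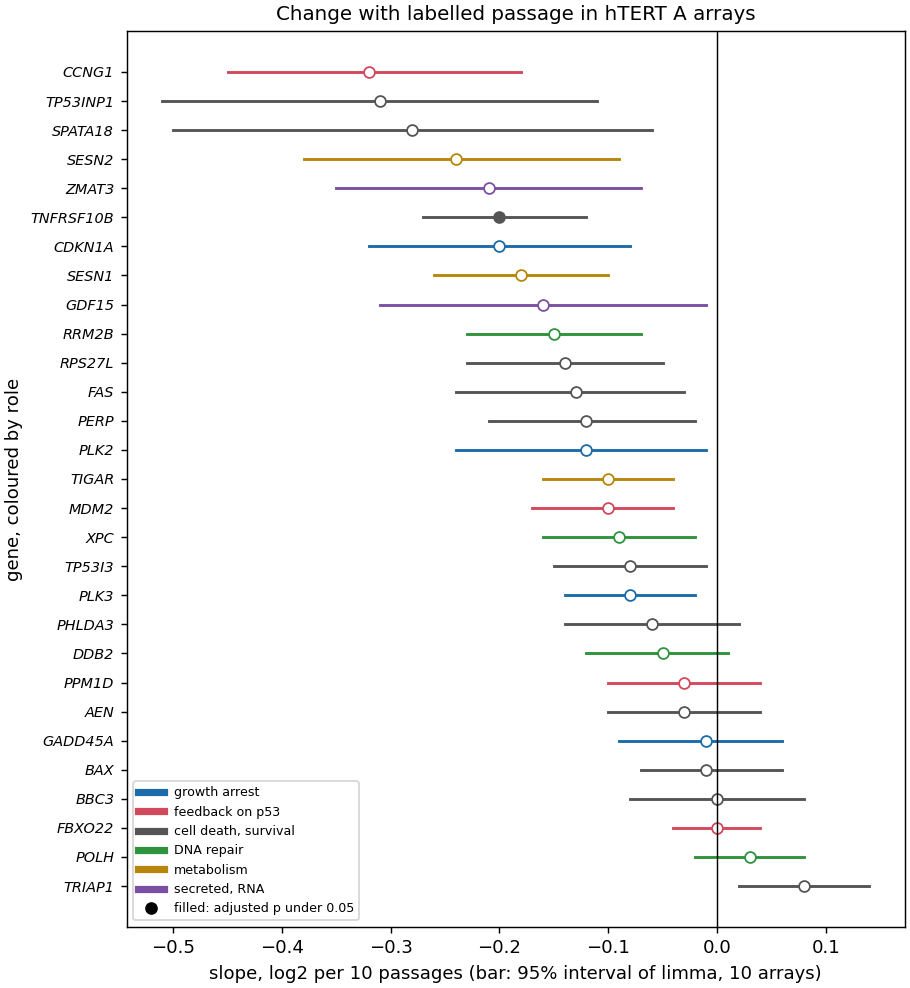
Slope of log2 expression per 10 passages for each of the 29 genes over the 10 hTERT A arrays, with 95% intervals from limma. TNFRSF10B is the only filled point (adjusted p under 0.05), TRIAP1 has the highest slope (0.08), and CCNG1 the lowest (-0.32).

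A95 and A39 are the latest and earliest hTERT A labels. Of the 29 genes, 25 had a lower mean in A95, against 40.9% of all rows, and the median difference was -0.47 log2, against 0.07 for all rows. Both A95 arrays lay below both A39 arrays for 21 genes (15.4% of all rows did so) and above both for POLH and TRIAP1 (22.7% of all rows). At an unadjusted p under 0.05, 14 genes were lower (4.33% of all rows) and 0 were higher (4.88%). With median centring these were 19 genes against 6.3% of rows and 0 genes against 2.87%. No gene and no row passed the adjusted threshold in limma (0 of 28869, 0%), and the smallest adjusted p was 0.528. The 25 genes below 0 numbered 23 to 26 when single arrays of these groups were left out, against 40.8% to 46.6% of all rows. The genes lower at an unadjusted p under 0.05 became fewer than 14 in each of these fits, most of all without A39 replicate 2. The share of all rows lower at that level fell as well, except without A95 replicate 1, where it rose. The median difference of the 29 genes ran from -0.60 to -0.465 in these fits, each of which leaves 1 array in a group.

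**Figure D3:**
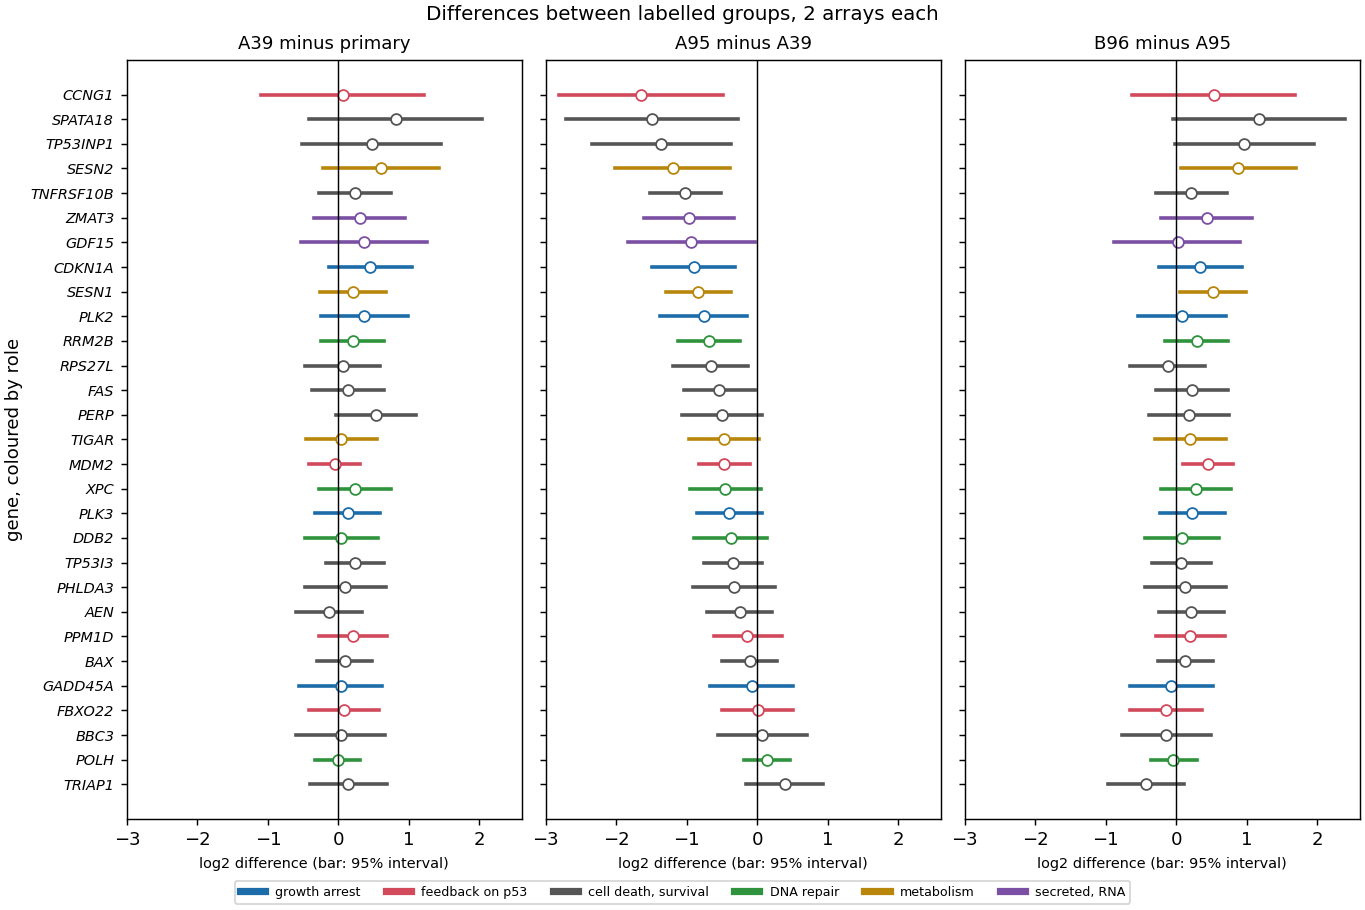
Log2 differences between labelled groups for the 29 genes, with 95% intervals from limma, in A39 minus primary (left), A95 minus A39 (middle) and B96 minus A95 (right). Genes are ordered by the middle panel, where 25 points lie left of 0, while 26 lie right of 0 in the left panel and 23 in the right panel.

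The growth arrest genes were followed first. CDKN1A encodes p21, the inhibitor of cyclin-dependent kinases through which p53 stops the cycle. It read 10.75 and 11.16 in primary cells, 11.11 and 11.70 at A39, 11.65 and 11.52 at A50, 11.48 and 10.90 at A58, 10.66 and 10.38 at A67, 10.33 and 10.68 at A95, and 10.78 and 10.92 at B96. The A95 arrays lay below both A39 arrays, and the highest and lowest arrays differed 2.58-fold. CDKN1A had a difference of -0.90 ± 0.26 (SE, n = 2 each) in A95 versus A39 and a slope of -0.20 ± 0.054 per 10 passages (limma adjusted p = 0.528 and 0.116). PLK2, a polo-like kinase induced by stress, read 10.27 and 10.07 in A95, against 10.78 and 11.08 in A39, a difference of -0.76 ± 0.28. The groups did not overlap, and A50 replicate 2, at 10.16, lay within the range of A95. PLK3, a related kinase, ran from 8.38 in A95 replicate 1 to 9.09 in A39 replicate 2, with a slope of -0.08 ± 0.027. GADD45A, a stress sensor linked to the G2/M checkpoint, showed no such course, with 11.39 and 11.97 in A95, 11.76 in both A39 arrays, and both its extremes in B96 (12.01 and 11.21).

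Of the 4 genes that act back on p53, CCNG1 and MDM2 had a negative slope at an unadjusted p under 0.05, against 8.83% of all rows. None of the 4 passed the adjusted threshold, against 0.281% of all rows. CCNG1, cyclin G1, which recruits a phosphatase to MDM2, read 11.02 and 10.96 in primary cells, 11.03 and 11.07 at A39, 11.07 and 10.88 at A50, 10.85 and 10.65 at A58, 10.41 and 10.16 at A67, 10.14 and 8.65 at A95, and 9.06 and 10.79 at B96. A95 replicate 2 and B96 replicate 1 thus stood more than 1 log2 below the other 12 arrays, which lay between 10.14 and 11.07. The difference of A95 from A39 was -1.65 ± 0.52 (SE), and it was -0.91 without A95 replicate 2 and -2.40 without A95 replicate 1. Its slope of -0.32 ± 0.060 per 10 passages had a limma adjusted p of 0.058, with values of 0.0152 to 0.136 under the other settings tried.

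MDM2, the ubiquitin ligase that degrades p53, varied less. It read 10.28 and 10.51 in A95, against 10.88 and 10.85 in A39, and the lowest 2 arrays were A95 replicate 1 and A67 replicate 2 (10.36). The difference was -0.47 ± 0.16 (SE), and the slope was -0.10 ± 0.029 per 10 passages. PPM1D, the phosphatase WIP1, which reverses damage signalling, ran from 8.83 in primary replicate 1 to 9.54 in B96 replicate 2, with a slope of -0.03 ± 0.031. FBXO22, an F-box protein of a ubiquitin ligase, lay between 9.79 and 9.96 in 12 arrays and left that band only in B96, at 10.16 and 9.33.

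The largest group, genes of cell death and survival, was mixed. Of its 12 genes, 11 had a negative slope and 7 did so at an unadjusted p under 0.05, against 41.5% and 8.83% of all rows. TNFRSF10B read 10.05 and 10.41 in primary cells, 10.34 and 10.59 at A39, 10.61 and 10.26 at A50, 10.18 and 9.89 at A58, 9.86 and 9.59 at A67, 9.53 and 9.37 at A95, and 9.44 and 9.89 at B96. Both arrays of A58 lay below both of A50, those of A67 below those of A58, and those of A95 below those of A67. The difference of A95 from A39 was -1.02 ± 0.23 (SE, limma adjusted p = 0.528) and lay between -0.89 and -1.14 when single arrays of those groups were left out. FAS, the other death receptor of the set, peaked later, at 10.56 in A50 replicate 2 and 10.52 in A58 replicate 1. It read 9.51 and 9.40 in A95, against 9.92 and 10.06 in A39.

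TP53INP1 and SPATA18, both linked to autophagy of cell components, had, with CCNG1, the 3 widest ranges of the set. TP53INP1, a nuclear protein that also promotes p53 phosphorylation, read 8.76 and 8.77 in primary cells, 8.71 and 9.77 at A39, 9.71 and 9.69 at A50, 9.55 and 8.46 at A58, 8.30 and 7.74 at A67, 7.49 and 8.27 at A95, and 8.49 and 9.20 at B96. The 4 highest arrays were A39 replicate 2, both of A50 and A58 replicate 1, and the A39 arrays lay 1.06 apart. SPATA18, also known as MIEAP and acting in mitochondrial quality control, read 7.39 and 8.25 in primary cells, 8.23 and 9.04 at A39, 8.93 and 7.64 at A50, 7.59 and 7.46 at A58, 7.26 and 6.55 at A67, 6.51 and 7.77 at A95, and 7.87 and 8.76 at B96. Its A50 arrays were far apart, where those of TP53INP1 were close, and its highest and lowest arrays differed 5.78-fold. In A95 versus A39, SPATA18 had a difference of -1.50 ± 0.55 (SE), which was -0.86 without A95 replicate 1 and -2.12 without A95 replicate 2. TP53INP1 had -1.36 ± 0.44, which was -0.83 without A39 replicate 2.

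**Figure D4:**
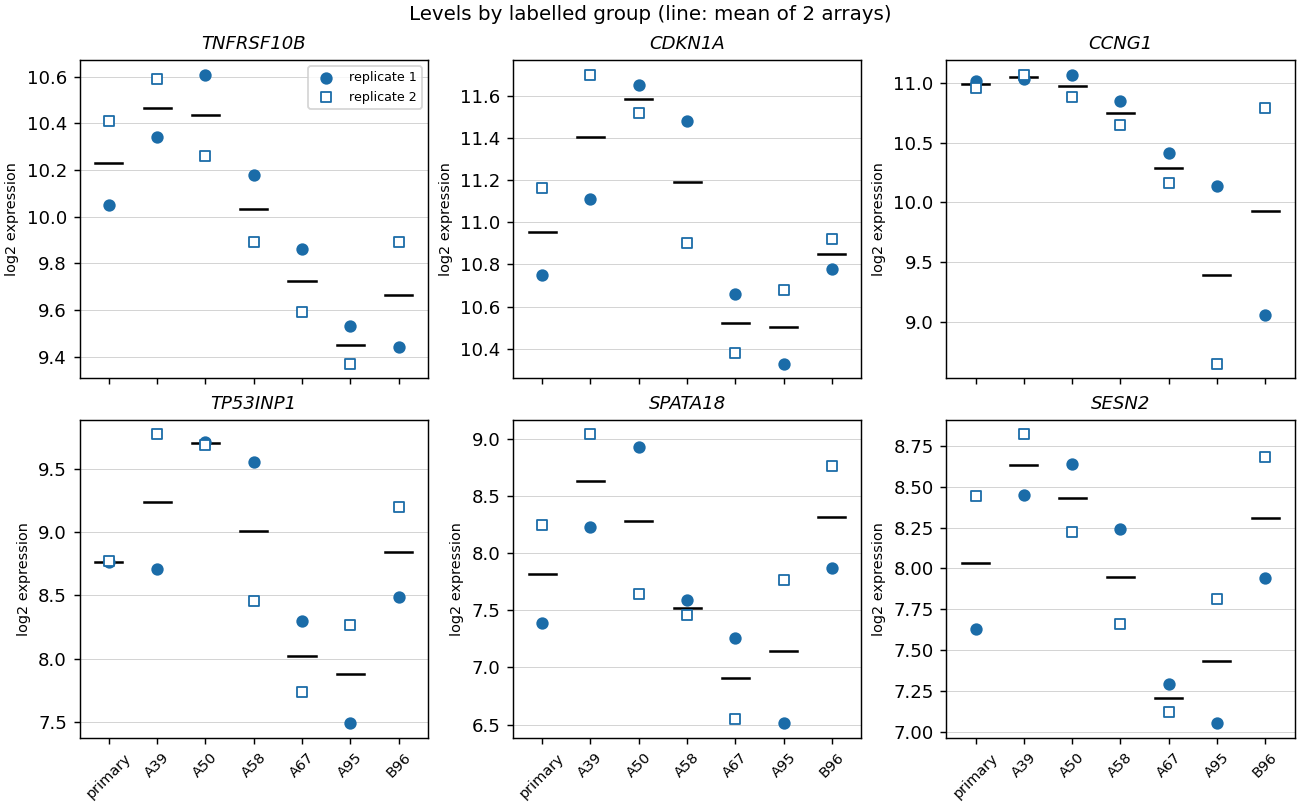
Log2 expression of 6 p53 targets by labelled group, with filled circles for replicate 1, open squares for replicate 2 and lines for the mean of the 2 arrays. TNFRSF10B runs from 10.61 in A50 replicate 1 to 9.37 in A95 replicate 2, CCNG1 reads 8.65 in A95 replicate 2, and replicate 2 of B96 lies above replicate 1 in all 6 panels.

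BAX and BBC3 act at the mitochondrial step of cell death, and their slopes were -0.01 ± 0.029 and 0.00 ± 0.038 (SE) per 10 passages. BAX, which opens the mitochondrial outer membrane, lay between 9.78 and 10.22 in all arrays, and its A95 values of 9.91 and 10.19 overlapped the A39 values of 10.22 and 10.10. BBC3, which encodes the BH3-only protein PUMA, had 9.08 and 8.43 in A95, against 8.64 and 8.72 in A39, so that the A95 arrays enclosed those of A39. TRIAP1, an inhibitor of the apoptosome, was higher in A95 at 11.50 and 11.78, against 11.27 and 11.24 in A39, with a difference of 0.39 ± 0.24 (SE), which was 0.25 without A95 replicate 2, and a slope of 0.08 ± 0.026. RPS27L, a ribosomal protein paralog, read 10.41 and 9.72 in A95, against 10.64 and 10.82 in A39, with the low values again in A95 replicate 2 and B96 replicate 1 (9.80). PERP, a membrane protein of desmosomes and apoptosis, ran from 10.86 in primary replicate 1 to 11.92 in A39 replicate 2. AEN, an exonuclease of apoptosis, TP53I3, a quinone oxidoreductase, and PHLDA3, an inhibitor of AKT, each had a range of 0.68 to 0.80 log2 and slopes of -0.03, -0.08 and -0.06.

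DNA repair genes differed from each other. RRM2B, the p53-inducible subunit of ribonucleotide reductase, read 9.43 and 9.30 in A95, against 9.85 and 10.24 in A39, a difference of -0.68 ± 0.20 (SE). It was high, at 10.10 to 10.24, in A39 replicate 2, both A50 arrays and A58 replicate 1, the 4 arrays in which TP53INP1 was high. XPC and DDB2, which recognise lesions in nucleotide excision repair, had slopes of -0.09 ± 0.033 and -0.05 ± 0.028. XPC was highest in A50 replicate 1 (9.50), and DDB2 was highest in primary replicate 2 (9.40). POLH, a polymerase that copies past ultraviolet lesions, covered the smallest range of the 29 genes, from 10.04 to 10.38, and lay higher in both A95 arrays (10.31 and 10.38) than in A39 (10.19 and 10.23).

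The metabolic targets all had negative slopes, against 41.5% of all rows. SESN1 and SESN2 encode sestrins, which restrain the growth kinase mTORC1. SESN1 read 7.54 and 7.40 in A95, against 8.13 and 8.48 in A39, with a difference of -0.84 ± 0.21 (SE). SESN2 read 7.63 and 8.44 in primary cells, 8.45 and 8.82 at A39, 8.64 and 8.22 at A50, 8.24 and 7.66 at A58, 7.29 and 7.12 at A67, 7.05 and 7.81 at A95, and 7.94 and 8.68 at B96. Its difference of A95 from A39 was -1.20 ± 0.37, and B96 replicate 2 lay within the range of the A39 arrays. TIGAR, which lowers glycolytic flux, ran from 9.28 in B96 replicate 1 to 10.06 in A50 replicate 1, with a slope of -0.10 ± 0.028.

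The secreted factor GDF15 and the RNA-binding protein ZMAT3 complete the set. GDF15 read 8.02 and 7.14 in A95, against 8.52 in both A39 arrays, a difference of -0.94 ± 0.40 (SE), which was -0.50 without A95 replicate 2. It read 7.68 in A50 replicate 2, lower than in both arrays of A39. ZMAT3, a splicing regulator, read 9.10 and 9.75 in A95, against 10.18 and 10.61 in A39, a difference of -0.97 ± 0.29, which was -0.64 without A95 replicate 1. It lay in those same 4 arrays between 10.49 and 10.61, and A58 replicate 2 read 9.69.

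The genes with and without a p53 element in their promoter windows can be set beside each other as a description. Of the 7 genes with the element, MDM2, FAS, SESN1, RPS27L and GDF15 had a negative slope at an unadjusted p under 0.05, and AEN and DDB2 did not. Of the 16 genes whose windows lacked it, 11 did so, as did 3 of the 6 genes with no window in the table and 8.83% of all rows. The median slope was -0.13 with the element, -0.095 without it and -0.105 for the genes with no window. No match says only that these letters are missing from this window.

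The steps between neighbouring labels were lower for most genes in the middle of the course. In A58 versus A50, 26 of 29 genes had a lower mean, against 51.3% of all rows, with a median of -0.225 log2, and both A58 arrays lay below both A50 arrays for 14 genes (14.7% of all rows). In A67 versus A58, 23 genes were lower, against 52.3% of all rows, with a median of -0.195, and both A67 arrays lay below both A58 arrays for 14 (16.4% of all rows). CDKN1A, FAS, MDM2, SESN1, TP53INP1 and ZMAT3 had an unadjusted p under 0.05 in that step, 6 genes against 0.766% of all rows. The first step, A50 versus A39, and the last, A95 versus A67, had 15 and 18 genes lower, against 48.4% and 40.1% of all rows, and medians of -0.01 and -0.06. None of the 4 steps had a row past limma's adjusted threshold (0% of rows), and the F test over the 7 groups had none either. The other 3 steps had 0 genes at an unadjusted p under 0.05, against 0.797% of all rows in A50 versus A39, 0.984% in A58 versus A50 and 3.13% in A95 versus A67, while A67 versus A58 had 1.34% in both directions. That F test gave an unadjusted p under 0.05 for 10 of the 29 genes and for 4.62% of all rows. Closest partners under different labels stand in opposite groups of these steps.

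A39 was compared with primary for the difference between hTERT and primary cells, which also differ in passage, so that hTERT and passage cannot be told apart. Of the 29 genes, 26 had a higher mean in A39, against 55.5% of all rows, and the median difference was 0.145 log2, against 0.03. Both A39 arrays lay above both primary arrays for 8 genes (15% of all rows), among them SESN2 (8.45 and 8.82 in A39, against 7.63 and 8.44 in primary) and FAS (9.92 and 10.06 in A39, against 9.79 and 9.91 in primary). For both genes the deciding values, nearly equal, were those of primary replicate 2 and A39 replicate 1, which are mutual closest partners. No gene had an unadjusted p under 0.05, against 1.2% of all rows, and limma's adjusted test called 0 rows (0%). Without the array labelled primary replicate 2, whose TERT value is that of hTERT cells, 24 genes were higher (51.8% of all rows) with a median of 0.275. Leaving out primary replicate 1 instead gave 21 genes (54.8% of all rows) and a median of 0.08. Leaving out A39 replicate 2 gave 22 genes (49.9%) and 0.08, and leaving out A39 replicate 1 gave 26 genes (58%) and 0.26. CDKN1A had a difference of 0.45 ± 0.26 (SE, n = 2 each) and PERP of 0.53 ± 0.26, with the lowest PERP value in primary replicate 1. Without A39 replicate 2 these differences were 0.15 and 0.19, and without primary replicate 1 they were 0.24 and 0.34, while without A39 replicate 1 they were 0.74 and 0.87.

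B96 was compared with A95 for the difference between the letters at similar passage. The mean was higher in B96 for 23 of 29 genes, against 49.1% of all rows, with a median of 0.20 log2 against -0.005. Both B96 arrays lay above both A95 arrays for 11 genes (9.83% of all rows). MDM2, SESN1 and SESN2 were the 3 genes higher at an unadjusted p under 0.05, against 1.38% of all rows, and limma's adjusted test called 0 rows (0%). With array weights that count was 0, against 0.378% of rows. It was smaller without B96 replicate 2 or A95 replicate 1, and larger without A95 replicate 2 or B96 replicate 1. Where it was larger, so was the share of all rows higher at an unadjusted p under 0.05. Some other genes were lower at that level without B96 replicate 1, where the share of all rows lower at that level was larger as well. MDM2 read 10.74 and 10.94 in B96, against 10.28 and 10.51 in A95, a difference of 0.45 ± 0.16 (SE). SESN1 had a difference of 0.52 ± 0.21, which was 0.29 without B96 replicate 2. SESN2 had 0.88 ± 0.37, which was 0.51 without that array and 0.50 without A95 replicate 1. The B96 arrays differed from each other by a median of 0.45 log2 over the genes, the widest gap of any label. Without B96 replicate 2 the median was 0.035, with 18 genes higher, against 50.5% of all rows. Without B96 replicate 1 it was 0.385, with 24 higher, against 49.1% of all rows. With neither A95 replicate 2 nor B96 replicate 1, a setting added after the data were seen, it was 0.34 with 22 genes higher (51% of all rows).

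Genes upstream of the targets were measured as well. Of 20 genes for regulators and relatives of p53, 12 had a positive and 8 a negative slope, against 58.5% and 41.5% of all rows. These 20 genes had a median slope of 0.027 log2 per 10 passages. None passed the adjusted test, and at an unadjusted p under 0.05 there were 2 negative and 4 positive slopes, against 8.83% and 9.89% of all rows. The lowest slopes were those of TP53BP1, a damage response adaptor (-0.09 ± 0.029, SE), COP1, a ubiquitin ligase for p53 (-0.09 ± 0.028), and HIPK2, a kinase of p53 (-0.08 ± 0.040). The highest belonged to CHEK1, a checkpoint kinase (0.12 ± 0.047), BRD7, a bromodomain cofactor of p53 (0.08 ± 0.023), and PRKDC, the catalytic subunit of DNA-PK (0.07 ± 0.033). The median deviation of this list stayed between -0.075 and 0.126 log2 in all arrays, a narrower band than the -0.341 to 0.314 of the targets. Single genes of the list differed in both directions, from -0.41 to 0.49 log2 in A95 versus A39, which a median over them does not show. CDKN2A, whose row cannot separate p16 from the MDM2 inhibitor ARF, read 6.54 and 7.84 in A95, against 9.25 and 9.59 in A39, and was lowest in A67 replicate 2 (6.33).

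A second list held 51 measured genes reported elsewhere as p53 targets. Of these, 36 had a negative slope, 18 of them at an unadjusted p under 0.05, and 2 a positive one at that level. The shares of all rows were 41.5%, 8.83% and 9.89%. The median slope of the list was -0.04 log2 per 10 passages. CASP1, an inflammatory caspase, fell by 0.23 ± 0.037 (SE) and was the 1 gene of this list past limma's threshold (adjusted p = 0.045). It read 7.99 and 7.82 in A95, against 9.29 and 9.13 in A39. The call was lost in 8 of the 10 fits without 1 array (adjusted p up to 0.121) and held without A67 replicate 2 (0.048) and without A95 replicate 1 (0.0321). TRIM22, an antiviral ubiquitin ligase, and PMAIP1, which encodes the BH3-only protein NOXA, had slopes of -0.23 ± 0.084 and -0.23 ± 0.061. E2F7, a repressor of cell cycle genes, had the highest slope of the list (0.28 ± 0.075) and read 10.80 and 11.16 in A95, against 9.92 and 9.18 in A39. ACER2 (0.09 ± 0.041) and SERTAD1 (0.06 ± 0.041) followed.

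Cell cycle genes and amino acid stress genes moved beside the targets, and their part in these results was not tested. All 15 cell cycle genes had a positive slope, 11 of them at an unadjusted p under 0.05 and 0 past the adjusted threshold, with a median of 0.21 log2 per 10 passages. Of all rows, 58.5% had a positive slope and 9.89% did so at that level. CCNE2 (0.34 ± 0.12, SE), CDC6 (0.32 ± 0.096) and BUB1B (0.31 ± 0.10) had the highest slopes, and E2F1 (0.12 ± 0.026), CDK1 (0.14 ± 0.11) and TOP2A (0.15 ± 0.065) the lowest. MKI67 read 10.88 and 10.55 in A95, against 10.13 and 8.79 in A39. The mean log2 level of the 15 genes was lowest, at 8.95, in A39 replicate 2 and A50 replicate 1, the arrays in which the p53 targets were highest. It was highest in A67 replicate 2 (10.77) and A95 replicate 1 (10.76). Other arrays did not follow this order. The level was 10.06 in A95 replicate 2 and 10.10 in B96 replicate 1, with the targets at median deviations of -0.24 and -0.22. It was 10.02 in primary replicate 2, with the targets at 0.15. In bulk RNA, fewer cells in cycle and less of the cell cycle transcripts per cell cannot be told apart.

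Of the 12 amino acid stress genes, many of them induced by the factor ATF4, 11 had a negative slope and 4 did so at an unadjusted p under 0.05, against 41.5% and 8.83% of all rows. ASNS, asparagine synthetase, had a slope of -0.28 ± 0.073 (SE), CHAC1 of -0.28 ± 0.11 and PSAT1 of -0.13 ± 0.069. ATF4 itself had 0.04 ± 0.039, SHMT2 -0.04 ± 0.039 and SLC7A11 -0.07 ± 0.041. SESN2 and GDF15 among the p53 targets are also known to respond to ATF4. The stress list was high in primary replicate 2 and A39 replicate 1 (median deviations of 0.58 and 0.52 log2), where the p53 targets stood at 0.15 and 0.11. It was lowest in A58 replicate 2 (-0.51), where the targets stood at -0.079. In A39 replicate 2 and A50 replicate 1 the stress list stood at 0.32 and 0.28, with the targets at 0.31 in both. In A67 replicate 2 and A95 replicate 1 it stood at -0.28 and -0.40, with the targets at -0.26 and -0.34. In A95 replicate 2 and B96 replicate 1 it stood at 0.05 and 0.07, with the targets at -0.24 and -0.22.

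Fibroblast markers moved beside the targets as well, and their part was not tested. All 10 had a negative slope, 4 of them at an unadjusted p under 0.05 and 0 past the adjusted threshold, with a median of -0.109 log2 per 10 passages, beside the -0.104 of the targets. Of all rows, 41.5% had a negative slope and 8.83% did so at that level. Their mean log2 level was 11.23 to 11.64 in A58 replicate 2, both A67 and A95 arrays and B96 replicate 1, and 11.80 to 12.26 in the other arrays.

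**Figure D5:**
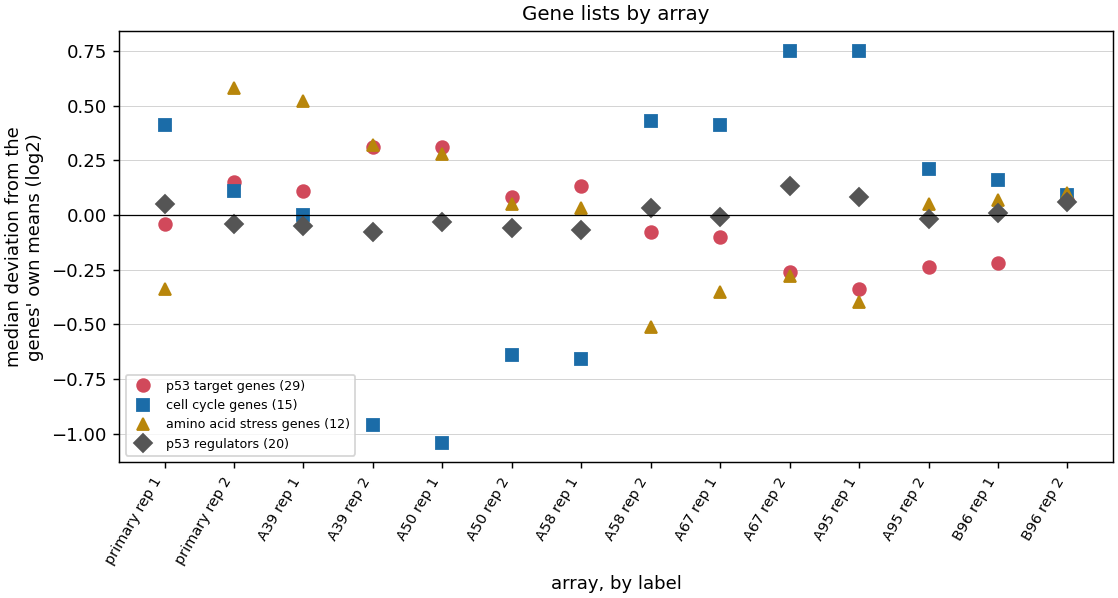
Median deviation from the genes' own means (log2) in each of the 14 arrays for the 29 p53 targets (circles), 15 cell cycle genes (squares), 12 amino acid stress genes (triangles) and 20 p53 regulators (diamonds). The targets are highest (0.31) and the cell cycle genes lowest (-0.96 and -1.04) in A39 replicate 2 and A50 replicate 1, while the median of the regulators, whose single genes differ in both directions, stays close to 0.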

How the data were processed

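RNA of WI-38 cells was measured on 14 arrays, and the groups are those of the labels. The authors deposited 1 table of log2 values for 28869 rows, running from 0 to 14.27. The log base is read from this range. How the probes were corrected, summarised and normalized is not stated in the labels. Array medians of 7.26 to 7.48 show a similar but not equal scale. The table has no detection calls. The number of arrays limits the precision. Rows were named through the platform annotation, with symbols updated by gene ID from RefSeq (19279 of 19310 rows with 1 symbol matched).

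Group means were estimated together over all 14 arrays, and a slope per 10 passages to the 10 hTERT A arrays, with limma 3.58.1 (lmFit and eBayes) in R 4.3.3. P-values were two-sided and adjusted across the 28869 rows by the Benjamini-Hochberg method, with a threshold of 0.05, in each of 9 tests. No filter was used. The closing section gives the alternatives.

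The 31 genes, the other lists and the tests were chosen with earlier results of these data known, so counts over the lists are descriptions. All 29 measured genes are accounted for. TERT, CDKN2A and MKI67 are given where the labels or cycling bear on a result. From the other lists the text names genes past the adjusted threshold and the 3 highest and 3 lowest slopes.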

Additional observations from a re-analysis of the deposited data

How the results depend on the processing

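In the other settings tried, no target passed the adjusted threshold in A95 versus A39, A39 versus primary or B96 versus A95. Rows called in these 3 contrasts stayed at 0 except for 4 (A95 versus A39 without A95 replicate 1), 2 (the same contrast on the compared groups alone), 6 (A39 versus primary without primary replicate 2) and 3 (B96 versus A95 without B96 replicate 2). With 1 array left in a group, that array is assumed to vary like the others.

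The passage trend depended most on the settings. Its 81 rows and 1 target became 159 and 2 with quantile normalization, 429 and 4 with median centring, 271 and 3 with the filter on dim rows, 132 and 2 with the intensity trend and robust prior, 2171 and 15 with array weights, 172 and 2 with the mean of a gene's rows, 729 and 4 with passage as a random block, 489 and 3 on ranks of passage, and 0 and 0 on passages 39 to 67. Fewer arrays entered the last fit, and otherwise the cause was not tested. In the fit with passage as a random block, the consensus correlation of arrays sharing a passage was negative (-0.164). That fit is therefore not a stricter handling of the duplicates. Leaving out single arrays gave 0 to 571 rows and 0 to 2 targets. The median slope of the targets lay between -0.12 and -0.094 in those fits, was -0.13 on passages 39 to 67, and was -0.143 per rank of passage. Without single arrays, targets with positive slopes numbered 2 to 5 (54% to 59.6% of rows). At an unadjusted p under 0.05, 12 to 19 targets had negative slopes (7.34% to 10.2% of rows) and 0 to 1 positive ones (8.13% to 11.7%). On passages 39 to 67, 0 targets had positive slopes at that level (6.81% of rows).

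When single arrays were left out, the median of the targets ran from -0.60 to -0.465 in A95 versus A39 (3 to 6 targets and 53.3% to 59% of rows above 0). It ran from 0.08 to 0.275 in A39 versus primary (3 to 8 targets and 41.8% to 49.8% of rows below 0). In B96 versus A95 it ran from 0.035 to 0.385 (5 to 11 targets and 48% to 52.9% of rows below 0). In A39 versus primary some targets were higher at an unadjusted p under 0.05 without primary replicate 2 or without A39 replicate 1. The share of all rows higher at that level was larger in these fits as well. Median centring left 7 targets below 0 in A39 versus primary (54.8% of rows). It left 5 higher at that level in B96 versus A95 (1.46% of rows). The 3 higher targets there were 0 with array weights (0.378% of rows) or the compared groups alone (0.412%). With neither A95 replicate 2 nor B96 replicate 1 the higher targets were more and some others were lower, and the shares of rows rose as well.

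The median of the targets in A50 versus A39 turned to 0.014 with quantile normalization. Differences of single targets turned sign in A95 versus A39 for FBXO22 (-0.07 with median centring), and when single arrays were left out FBXO22 ran from -0.02 to 0.04, BAX from -0.25 to 0.03, BBC3 from -0.25 to 0.40, GADD45A from -0.37 to 0.21 and PPM1D from -0.34 to 0.06. Slopes turned for POLH on passages 39 to 67 (-0.01), and without single arrays BAX ran from -0.04 to 0.01 and GADD45A from -0.08 to 0.01. The slopes of BBC3 and FBXO22 had no stable sign, at -0.05 to 0.06 and -0.01 to 0.01 over the settings tried. The replicate numbers do not pair the arrays: deviations of the same number correlated at -0.53 to 0.20 over 21 pairs of groups, above 0.1 in 4. With the replicate block the trend called 74 rows and 1 target, which was CCNG1 in place of TNFRSF10B, and no other contrast changed its count of calls. Median centring moved the values of all rows by -0.09 to 0.13 log2 per array.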
